A study of Rattus norvegicus with 138 samples.

Results

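The genes described are Spp1, which encodes osteopontin, and the lipid-associated macrophage genes Gpnmb, Trem2, Lgals3, Fabp5, Cd9 and Cd63, 7 of the 16181 gene symbols measured by RNA-Seq in rat tibialis anterior (TA) muscle after volumetric muscle loss (VML). The 7 genes were chosen by symbol, with the result in view that Spp1 and Gpnmb had the largest differences of all genes between non-repaired injured and control muscle at 3 days post injury (DPI). That comparison is therefore described without a test, and the other comparisons were tested. All 7 passed the filter on low values, a mean above 1 TPM in at least 1 group, which left 11328 genes. Trem2 passed it through injured groups alone, being at most 0.88 TPM in uninjured muscle. Its comparisons of injured with uninjured muscle are therefore not independent of the filter.

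The study asked how muscle transcripts change over the weeks after VML, a loss of muscle too large to regenerate, and with a graft of minced muscle. In adult male inbred Lewis rats, a full-thickness punch biopsy was taken from the middle of 1 TA muscle, and the defect was either left without repair (non-repaired) or filled with the rat's own minced muscle (MMG, minced muscle graft). The TA of the other leg was the contralateral muscle. Some rats carried the label Run and the others NoRun, and the sources used here do not define the running.

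Injured muscles of rats not running came from 3, 8, 4 and 4 non-repaired and 7, 8, 4 and 4 grafted rats at 3, 7, 14 and 28 DPI. In the running arm there were 8, 4, 4 and 2 non-repaired and 6, 4, 4 and 2 grafted injured muscles on those days. Each arm and day also had 2 contralateral muscles, except that there were 4 non-repaired and 6 grafted ones at 7 DPI in rats not running, and none that could be used in running rats at 28 DPI. The control group was 4 muscles, the left and right TA of 2 rats labelled Sham at day 0, without running or repair. Its rats carried the prefix TS4 and all operated rats TS5, so a difference between control and operated rats cannot be told apart from a difference between those series. Each muscle is 1 value, 114 in all from 78 rats, and sides of a rat are not independent.

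Osteopontin is a secreted phosphoprotein that binds CD44 and integrins and is made by macrophages at sites of tissue repair and fibrosis. Lipid-associated macrophages are cells that clear lipid and debris. They carry the lipid-sensing receptor TREM2, the lysosomal glycoprotein GPNMB and genes for lipid transport and lysosomal work, and they occur in obese fat, atherosclerotic plaque, fibrotic organs and injured muscle. Galectin-3 (Lgals3) is a lectin that binds galactosides, FABP5 is a carrier of fatty acids inside cells, and CD9 and CD63 are tetraspanins, membrane proteins of the cell surface and of late endosomes respectively, found on many cell types.

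Values are TPM, a share of the measured transcripts of a library corrected for transcript length, and differences are on the log2(TPM + 1) scale, which understates the change of genes near 0. In the samples, RNA came from whole muscle, so fewer cells of a type and less RNA per cell cannot be told apart. Before averaging, 13 libraries with 901 to 5712 symbols above 1 TPM were dropped, since at least 7000 were required, and the kept ones had 7866 to 10948. The 9 muscle fibre markers summed to 166273 to 201771 TPM in control muscle, against 16956 to 44601 TPM in injured muscle of rats not running at 3 DPI. The 14 macrophage markers summed to 31.6 to 60.0 TPM in control muscle and to 1995 to 3428 TPM in those injured muscles. No value below tells whether the 7 genes were read from macrophages or from other cells.

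The promoters of Spp1, Gpnmb, Trem2 and Cd63 are shown because these genes were high together in injured muscle while 2 of them carry the same pair of motifs. GPNMB and CD63 are lysosomal, and the MiT/TFE transcription factors, such as MITF and TFEC, bind E-box motifs of lysosomal and pigment genes, among them CACGTG and the M-box. Promoters from RefSeq (build GRCr8) were matched by symbol for 5 of the 7 genes, all but Lgals3 and Fabp5. Each sequence is the 250 bases before the annotated start, 5′ to 3′ on the strand of the gene, with M-box, AP-1 and TATA matches in capitals. The regions are chr14:5619805-5620054 on the minus strand for Spp1, chr4:79340878-79341127 on the plus strand for Gpnmb, chr9:20151780-20152029 on the minus strand for Trem2 and chr7:1921894-1922143 on the plus strand for Cd63.
Spp1: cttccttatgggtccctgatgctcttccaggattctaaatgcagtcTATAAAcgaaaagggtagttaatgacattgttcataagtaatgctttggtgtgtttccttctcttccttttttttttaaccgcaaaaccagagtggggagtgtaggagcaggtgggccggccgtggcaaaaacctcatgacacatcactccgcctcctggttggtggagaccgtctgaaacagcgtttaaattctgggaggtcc
Gpnmb: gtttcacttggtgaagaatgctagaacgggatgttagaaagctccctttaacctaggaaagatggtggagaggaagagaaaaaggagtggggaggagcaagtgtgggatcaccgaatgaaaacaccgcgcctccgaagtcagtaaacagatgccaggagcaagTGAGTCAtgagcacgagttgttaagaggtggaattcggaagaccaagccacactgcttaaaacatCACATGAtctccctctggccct
Trem2: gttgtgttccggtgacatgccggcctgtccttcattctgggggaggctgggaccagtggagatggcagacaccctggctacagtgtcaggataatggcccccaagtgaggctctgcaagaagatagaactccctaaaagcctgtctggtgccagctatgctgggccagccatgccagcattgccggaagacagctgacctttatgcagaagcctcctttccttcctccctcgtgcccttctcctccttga
Cd63: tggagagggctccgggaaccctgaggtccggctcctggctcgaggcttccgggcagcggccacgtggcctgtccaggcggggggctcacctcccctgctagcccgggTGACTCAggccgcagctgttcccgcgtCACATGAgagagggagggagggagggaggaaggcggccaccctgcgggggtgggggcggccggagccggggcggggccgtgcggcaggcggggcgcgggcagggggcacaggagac
Both strands were searched. The M-box (TCATGTG, read here as CACATGA on the other strand) lay 22 to 16 bases before the start of Gpnmb and 116 to 110 bases before that of Cd63. It was in 3.07% of 33469 promoters. AP-1 (TGANTCA) lay 87 to 81 bases before the start of Gpnmb and farther from the start than the M-box in Cd63, and was in 6.34% of all promoters. TATAAA lay 204 to 199 bases before the start of Spp1, and 12.9% of promoters held it. Trem2 and the Cd9 promoter, at chr4:159975359-159975608 on the minus strand, held none of the 3. CACGTG was found in Cd63 alone, 190 to 185 bases before the start, and in 5.59% of all promoters. GAGGAA, a motif of the PU.1 type, was in Gpnmb, Trem2, Cd9 and Cd63 and in 23.3% of all promoters. These are matches of letters and no test of binding. Among the factors themselves, Tfec was higher in grafted injured than in contralateral muscle by 3.70 ± 0.23 (SE) on the log2 scale at 3 DPI and by 2.50 ± 0.16 at 7 DPI, both called, while Mitf differed by 0.26 and 0.20 and was not called.

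In injured muscle without repair, all 7 genes stood far above control at 3 and 7 DPI, and Spp1 covered the widest range. Spp1 was 0.29, 0.50, 0.68 and 0.73 TPM in the 4 control muscles. In non-repaired injured muscle of rats not running it was 1215, 2621 and 2935 TPM at 3 DPI. At 7 DPI it spread from 36.4 to 1535 TPM with a median of 197 TPM. Every muscle was above every control muscle, and the highest was 42.2 times the lowest at 7 DPI and 2.42 times at 3 DPI. At 14 DPI Spp1 was 5.95, 7.58, 16.7 and 20.3 TPM, and at 28 DPI it was 8.02, 13.8, 16.6 and 18.75 TPM. Those 8 muscles were below all muscles of 3 and 7 DPI and still above control. The difference from control was 10.42, 7.20, 2.99 and 3.25 on the log2 scale at 3, 7, 14 and 28 DPI, which gave Spp1 the ranks 1, 8, 252 and 94 from the highest of 11328 genes.

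Gpnmb kept its distance from control longer than Spp1 did, with differences of 8.80, 7.11, 4.90 and 4.96 on the log2 scale. Its control values were 1.63, 2.08, 2.65 and 4.26 TPM. The injured values at 3 DPI were 1312, 1501 and 1963 TPM, and at 14 DPI they were 79.6, 88.02, 128.4 and 131.7 TPM. Trem2, near 0 in control muscle at 0 to 0.38 TPM, was 97.2, 134.2 and 176 TPM at 3 DPI and 6.86 to 8.67 TPM at 14 DPI, with differences of 6.77, 4.99, 2.87 and 2.55 on the log2 scale. Lgals3 differed from control by 6.87, 5.22, 3.35 and 3.19 and Fabp5 by 5.58, 4.12, 1.78 and 1.80. The tetraspanins were already expressed in uninjured muscle, and Cd9 differed by 2.91, 3.00, 2.21 and 2.10 and Cd63 by 3.03, 2.28, 0.90 and 0.78. Cd63 was 227 to 263 TPM in control and 359 to 494 TPM in injured muscle at 28 DPI. None of the 7 genes overlapped between the injured and the control group on any of the 4 days, and 69.9%, 66%, 58.9% and 60.2% of all 11328 genes were likewise higher in every injured than in every control muscle at 3, 7, 14 and 28 DPI.

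A call, in the comparisons that were tested, needed both an adjusted p under 0.05 and a log2 fold change beyond 1. Here, as a description, the median of the 7 differences was 6.77, 4.99, 2.87 and 2.55, beside 0.96, 0.91, 0.53 and 0.52 for all tested genes. The same with size factors was 5.78 at 3 DPI.

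**Figure D1:**
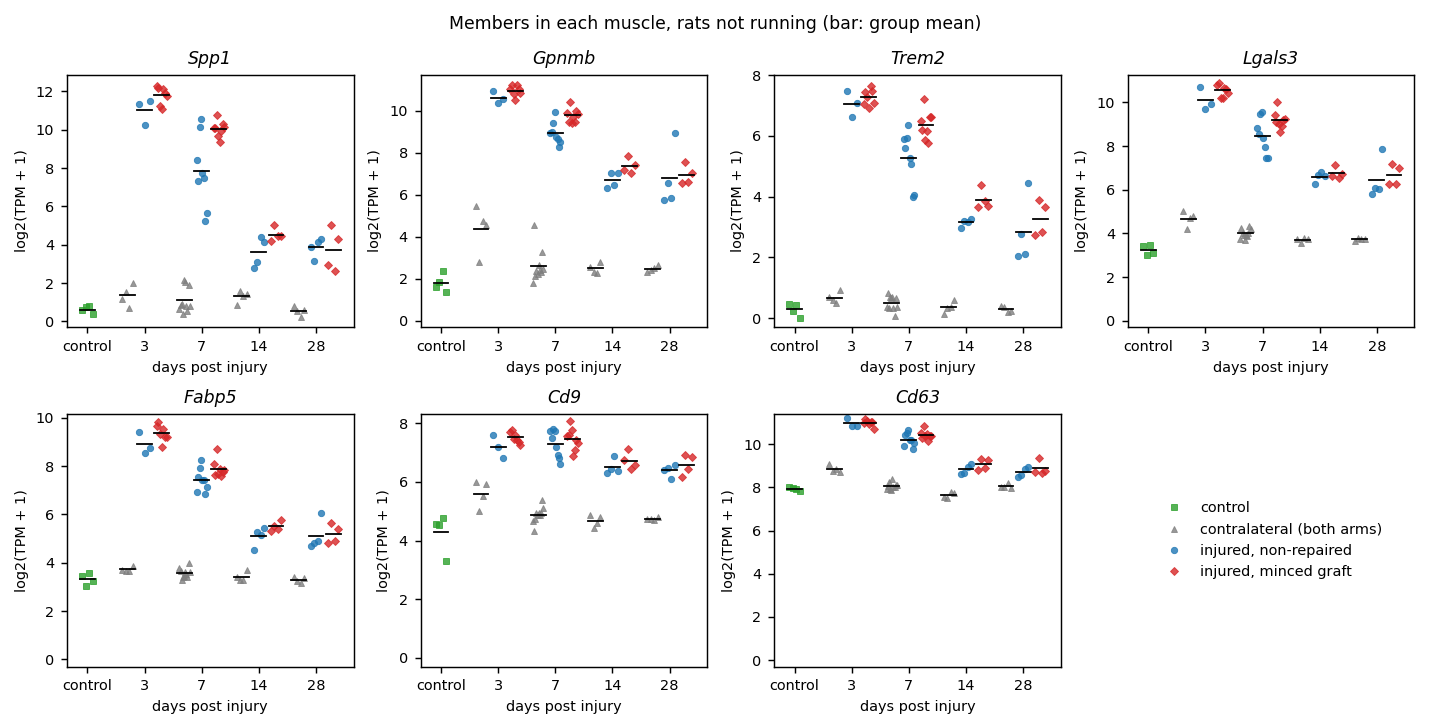
Level of each gene, as log2(TPM + 1), in every muscle of rats not running, by group and days post injury. Points are muscles and bars group means. Spp1 falls from 1215 to 2935 TPM in non-repaired muscle at 3 DPI to 5.95 to 20.3 TPM at 14 DPI, still above the 4 control muscles.

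At 28 DPI 1 non-repaired muscle, that of rat 82, was the highest of its group for all 7 genes. Its Gpnmb was 490 TPM against 53.6, 56.5 and 93.7 TPM in the others. Its Trem2 was 20.7 TPM against 3.08, 3.28 and 5.88 TPM, and its Lgals3 was 229 TPM against 54.1, 63.6 and 67.7 TPM. Spp1 did not set it apart, at 18.75 against 8.02, 13.8 and 16.6 TPM. Cd68 in that muscle was 59.4 TPM against 13.6, 14.8 and 16.9 TPM, whereas its 14 macrophage markers summed to 397 TPM against 263, 309 and 330 TPM. Without that muscle the median of the 7 differences at 28 DPI was 2.05 in place of 2.55.

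Grafted rats served as a separate test of the injury, since none of them entered the comparison above. In grafted injured muscle against contralateral muscle of grafted rats, all 7 genes were higher and called at 3, 7 and 14 DPI, and 6 at 28 DPI. Over all tested genes 44%, 46.2%, 26.1% and 19.1% were called at 3, 7, 14 and 28 DPI. In contralateral muscle Spp1 was 0.64 and 3.07 TPM at 3 DPI, 0.45 to 3.47 TPM (median 1.74, n = 6) at 7 DPI, 1.53 and 1.72 TPM at 14 DPI and 0.16 and 0.54 TPM at 28 DPI. In grafted injured muscle it was 2199 to 4973 TPM (median 3931, n = 7), 664 to 1719 TPM (median 1086, n = 8), then 17.5, 20.8, 21.4 and 31.2 TPM at 14 DPI, and 5.1, 6.69, 18.7 and 31.2 TPM at 28 DPI. The groups did not overlap on any day. Spp1 was higher by 10.44 ± 0.73 (SE) on the log2 scale at 3 DPI (adjusted p = 3.8e-23, limma), 8.67 ± 0.49 at 7 DPI (2.3e-29), 3.15 ± 0.79 at 14 DPI (0.00034) and 3.30 ± 0.79 at 28 DPI (0.00025).

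From 14 DPI on, Gpnmb showed the largest difference of the 7 on the log2(TPM + 1) scale, which shrinks differences of genes near 0. By the ratio of mean TPM, Trem2 came before Gpnmb at 14 DPI, and both Trem2 and Spp1 did at 28 DPI. Gpnmb was higher by 6.29 ± 0.49, 7.21 ± 0.33, 4.82 ± 0.53 and 4.37 ± 0.53 at 3, 7, 14 and 28 DPI. Its contralateral values at 28 DPI were 4.71 and 5.31 TPM, and the grafted ones 93.8, 98.3, 131.6 and 189 TPM. The receptor gene Trem2 was higher by 6.56 ± 0.42, 5.90 ± 0.28, 3.40 ± 0.46 and 3.06 ± 0.46, with 5.68, 6.18, 11.5 and 13.7 TPM at 28 DPI in grafted muscle and 0.16 and 0.17 TPM in contralateral muscle. Lgals3 was higher by 5.81 ± 0.39, 5.19 ± 0.26, 2.98 ± 0.42 and 2.92 ± 0.42. Fabp5 was higher by 5.61 ± 0.31, 4.30 ± 0.21, 2.01 ± 0.33 and 1.94 ± 0.33. Cd9 was higher by 1.81 ± 0.29, 2.45 ± 0.19, 2.03 ± 0.31 and 1.83 ± 0.31. Cd63 was higher by 2.22 ± 0.16, 2.34 ± 0.11, 1.31 ± 0.18 and 0.80 ± 0.18, the last under the fold limit for a call at an adjusted p of 9.1e-05. With size factors the call of Cd63 at 14 DPI was lost, at 0.60, and with all libraries kept it was lost too (adjusted p = 0.17). At 28 DPI Cd63 was at 0.20 with size factors (adjusted p = 0.28, limma). No gene of the 7 overlapped between the groups on any day, and 62.2%, 68.4%, 75.2% and 69.7% of all genes were also higher in every grafted than in every contralateral muscle.

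On these days 14, 14, 13 and 13 of 14 macrophage markers were called higher, with medians of 4.16, 3.5, 2.04 and 1.78 on the log2 scale. All 6 fibroblast markers were higher on every day, and 9, 7, 1 and 0 of 9 muscle fibre markers were lower. The part of these other changes in the differences of the 7 genes was not tested. The median difference of all tested genes was 0.66, 0.85, 0.58 and 0.49. Median-of-ratios size factors brought it to 0.06, 0.06, 0.02 and 0.03 and moved the median of the 7 genes from 5.81, 5.19, 2.98 and 2.92 to 5.1, 4.26, 2.31 and 2.36.

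The graft itself was compared with no repair at the same day, and in rats not running it went with higher Spp1 and Trem2 at 7 DPI. Only 10 of 11328 genes (0.0883%) were called at that day, all higher with the graft, and 2 of them were Spp1 and Trem2. Another was Msr1, a scavenger receptor of the lipid handling list, at 1.09 ± 0.20 (SE) on the log2 scale with an adjusted p of 0.00026. Spp1 was 664 to 1719 TPM with the graft (median 1086, mean 1096 ± 317 SD, n = 8) and 36.4 to 1535 TPM without (median 197, mean 455 ± 558 SD, n = 8). The groups overlapped: rats 19 and 20, without repair, had 1118 and 1535 TPM, and the other 6 non-repaired muscles were below every grafted one. Spp1 was higher by 2.22 ± 0.46 on the log2 scale, a fold of 4.66 (adjusted p = 0.0012, limma). Trem2 was 53.1 to 148 TPM (median 79.9) with the graft and 14.8 to 81.6 TPM (median 42.9) without, higher by 1.09 ± 0.26 (adjusted p = 0.0064). In Trem2 the groups overlapped too.

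Of the other 5 genes, Lgals3 passed the p limit but not the fold limit, at 0.73 ± 0.24 (adjusted p = 0.044). With size factors Lgals3 was at 0.61 (adjusted p = 0.15, limma), and with all libraries kept it was called, at 1.09 (0.012). Gpnmb differed by 0.85 ± 0.31 (0.066), Fabp5 by 0.46 ± 0.19 (0.11), Cd63 by 0.21 ± 0.10 (0.16) and Cd9 by 0.18 ± 0.18 (0.52). At an unadjusted p under 0.05, 6 of the 7 and 3064 of all tested genes differed. The median over the 7 was 0.73 beside 0.11 over all genes.

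The graft difference was not the same in all ranges of rat numbers, a contrast between ranges that was not tested. Rats of 7 DPI carried numbers from 3 separate ranges, the lowest being 1 to 32, and what the ranges stand for is not given in the sources used here. Among rats 1 to 32, Spp1 was 162, 349, 1118 and 1535 TPM without repair and 821, 1074, 1097 and 1719 TPM with the graft, which overlapped, with a difference of 1.02 on the log2 scale. In the middle range, replicates 5 and 6 of each group, it was 180 and 213 TPM against 664 and 967 TPM, a difference of 2.03. In the highest range, replicates 7 and 8 of each group, it was 36.4 and 48.65 TPM against 1141 and 1283 TPM, a difference of 4.81. Grafted muscles had 664 to 1719 TPM over the 3 ranges, and the non-repaired muscles of the last 2 ranges were below all of them. Trem2 differed by 0.48, 0.78 and 2.60 in the 3 ranges. Both compared groups were then cut to 1 range at a time, an alternative added after the values by rat were seen. All other groups stayed whole in these fits, so the spread was estimated over muscles of all ranges. For the 3 ranges, 0, 0 and 3 of the 7 genes and 0.0176%, 0.0176% and 6.73% of all genes were called. The 3 genes were Spp1 (adjusted p = 1.6e-05, limma), Trem2 (0.00011) and Lgals3 (0.0025) in the highest range. Each of the last 2 ranges holds 2 muscles a group. With the range as a covariate over all rats, Spp1 and Trem2 were called, and with the groups compared alone neither was. With size factors Trem2 was at 0.96 and not called. Over the alternatives that used all these rats, the adjusted p ran from 9.9e-05 to 0.11 for Spp1 and from 6.6e-05 to 0.12 for Trem2.

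**Figure D2:**
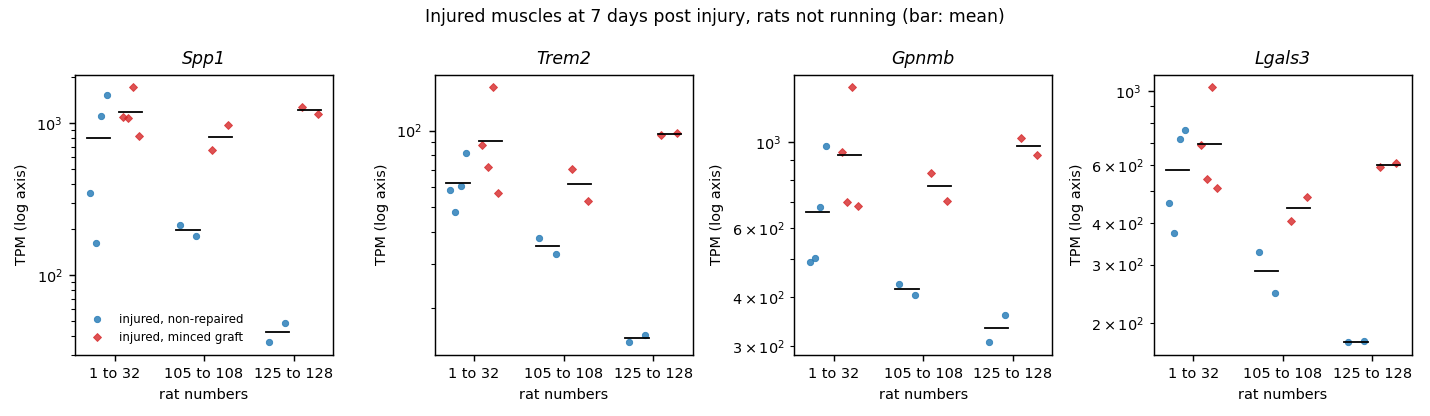
Level at 7 DPI of Spp1, Trem2, Gpnmb and Lgals3 in injured muscle of rats not running, in TPM on a log axis. Points are muscles without repair and with the graft, by range of rat numbers, and bars are means. Spp1 in grafted muscle is 664 to 1719 TPM in all ranges, and non-repaired values run from 36.4 to 48.65 TPM in the highest range up to 1535 TPM in rat 20.

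Macrophage markers moved along with these values. They summed to 1072 to 2168 TPM in grafted and 482 to 1699 TPM in non-repaired muscle at 7 DPI, with 578 and 482 TPM in the non-repaired replicates 7 and 8 of the highest range of rat numbers and 1699 TPM in rat 20. None of the 14 was called by limma, although 11 had an unadjusted p under 0.05, and their median difference was 0.53. The muscle fibre sum was 104798 and 91018 TPM in those 2 muscles and 45583 to 77076 TPM in the other 6 non-repaired muscles. Relative to the mean of the macrophage markers in the same muscle, Spp1 was 4.02 ± 0.29 (SD) on the log2 scale with the graft and 2.34 ± 1.37 without. Trem2 was 0.33 ± 0.29 with the graft and -0.21 ± 0.33 without on that scale. Gpnmb and Lgals3 were also higher with the graft there, at 3.75 against 3.44 and 3.16 against 2.97, while Fabp5, Cd9 and Cd63 were lower, at 1.87 against 1.95, 1.44 against 1.80 and 4.40 against 4.73. These relative values were not tested. The part of macrophage content in the graft difference was not tested. Rat 23, with the highest macrophage sum, was the highest grafted muscle for all 7 genes.

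At the other days no graft difference in the 7 genes was called in rats not running. At 3 DPI Spp1 was 1215, 2621 and 2935 TPM without repair and 2199 to 4973 TPM with the graft, a difference of 0.76 ± 0.63 on the log2 scale (95% interval -0.49 to 2.01, adjusted p = 0.49). At 14 DPI it differed by 0.92 ± 0.64 (0.73) and at 28 DPI by -0.16 ± 0.64 (1). Trem2 at 14 DPI was 11.6, 11.9, 13.4 and 19.7 TPM with the graft and 6.86, 8.0, 8.10 and 8.67 TPM without. Those groups did not overlap, as in 7.64% of all genes, and the difference was 0.74 ± 0.37 with an adjusted p of 0.73. Over all tested genes limma called 0.00883%, 0.0265% and 0% at 3, 14 and 28 DPI. At an unadjusted p under 0.05 none of the 7 differed on these days, against 17.3%, 5.23% and 1.24% of all tested genes.

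Over time in grafted muscle the 7 genes separated. Between 3 and 7 DPI 4 of them fell past both limits, where 6.94% of all tested genes were called. Spp1 fell by 1.76 ± 0.47 on the log2 scale, Fabp5 by 1.47 ± 0.20, Lgals3 by 1.35 ± 0.25 and Gpnmb by 1.17 ± 0.32. Trem2 differed by -0.90 ± 0.27 and Cd63 by -0.56 ± 0.11, under the fold limit, and Cd9 by -0.05 ± 0.19. The values of Cd9 overlapped, 154 to 220 TPM (median 177) at 3 DPI and 117 to 271 TPM (median 181) at 7 DPI.

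In log2 units the largest step lay between 7 and 14 DPI, when 6 of the 7 genes fell and 10.8% of all tested genes were called. Rat numbers at 14 DPI and at 28 DPI did not overlap those of any other day. A step to either day therefore cannot be told apart from a difference between ranges of rat numbers. Spp1 fell by 5.51 ± 0.56 on the log2 scale, from 664 to 1719 TPM down to 17.5 to 31.2 TPM. Gpnmb, Trem2, Lgals3 and Fabp5 fell by 2.41 ± 0.37, 2.47 ± 0.32, 2.44 ± 0.30 and 2.40 ± 0.23, and Cd63 by 1.35 ± 0.12, a call that was lost with size factors, at -0.97. Cd9 differed by -0.75 ± 0.22 (adjusted p = 0.0022), under the fold limit, and by -0.36 with size factors (adjusted p = 0.105, limma). The days did not overlap in those 6 genes, and 43.6% of all genes were likewise lower in every muscle of 14 DPI. From 14 to 28 DPI limma called none of the 7, none had an unadjusted p under 0.05, and 1.36% of all genes were called. The interval for Spp1 over that step was -2.10 to 0.46 on the log2 scale.

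From 3 to 28 DPI 6 of the 7 genes fell, where 32.7% of all genes were called. Spp1 fell by 8.09 ± 0.57 (adjusted p = 5.4e-23), Fabp5 by 4.18 ± 0.24, Gpnmb and Trem2 by 3.99 ± 0.38 and 3.99 ± 0.33, Lgals3 by 3.87 ± 0.30 and Cd63 by 2.11 ± 0.13. Cd9 differed by -0.93 ± 0.23, under the fold limit. With size factors Cd9 was at -0.38 (adjusted p = 0.074, limma). It was called with the range covariate, at -1.05, and without replicate 2 or 4 of 28 DPI, at -1.04 and -1.02. That covariate gave rats of 28 DPI no range of their own. At 28 DPI rat 76 was the highest grafted muscle for all 7 genes, with Cd63 at 660 TPM against 410, 421 and 438 TPM and Spp1 at 31.2 against 5.1, 6.69 and 18.7 TPM.

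Macrophage markers fell over the same days, from a mean log2(TPM + 1) of 7.24 at 3 DPI to 6.03, 4.52 and 4.16 at 7, 14 and 28 DPI, so each gene was also expressed relative to the mean of the 14 markers in its muscle. On that scale Spp1 still fell and Cd9 rose. The relative level of Spp1 was 4.57 ± 0.39 (SD, n = 7), 4.02 ± 0.29 (n = 8), 0.02 ± 0.19 (n = 4) and -0.44 ± 0.84 (n = 4). Between 7 and 14 DPI it was the 1 gene of the 7 called, at -4.00 ± 0.46 (SE, adjusted p = 1.5e-11). Over 3 to 28 DPI it fell by 5.0 ± 0.47 and Fabp5 by 1.10 ± 0.21. With Cd68 alone as the reference Fabp5 differed by -0.25 and was not called (adjusted p = 0.27), while Cd63 was called higher, at 1.82. Gpnmb, Trem2 and Lgals3 differed by -0.91 ± 0.32, -0.91 ± 0.24 and -0.79 ± 0.18 (adjusted p = 0.0051, 0.00031 and 2.7e-05), under the fold limit. With Cd68 alone these 3 differed by -0.07, -0.07 and 0.05 (adjusted p = 0.80, 0.74 and 0.73).

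The relative level of Cd9 was 0.28 ± 0.11, 1.44 ± 0.23, 2.21 ± 0.15 and 2.43 ± 0.26 (SD). It was the 1 gene called between 3 and 7 DPI, higher by 1.16 ± 0.12 (SE), and over 3 to 28 DPI it rose by 2.15 ± 0.15 (adjusted p = 5.3e-25). Cd63 differed by 0.97 ± 0.17 over that span. Most genes were higher on this scale at the later days: 62.6%, 64.1%, 1.09% and 93.1% of all genes were called for 7 against 3, 14 against 7, 28 against 14 and 28 against 3 DPI, with median differences of 1.11, 1.14, 0.30 and 2.58. The difference of Cd9 over 3 to 28 DPI was below that median, and that of Spp1 had the opposite sign. From 14 to 28 DPI limma called none of the 7 on this scale, and none had an unadjusted p under 0.05.

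**Figure D3:**
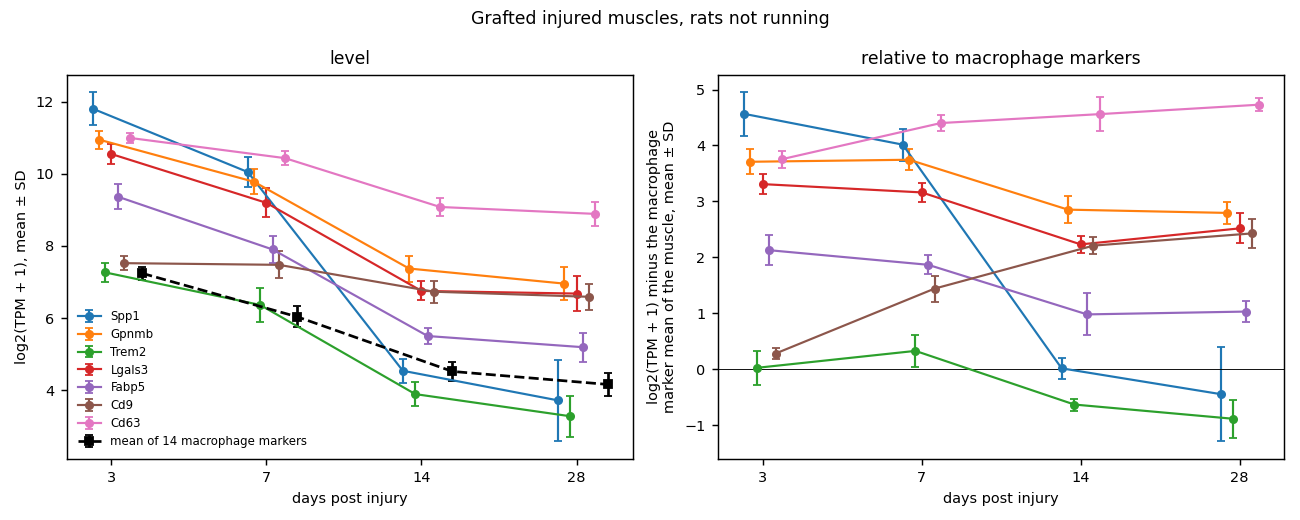
Grafted injured muscles of rats not running against days post injury (evenly spaced): level as log2(TPM + 1) on the left, and the same minus the mean of 14 macrophage markers in each muscle on the right. Points are group means, error bars SD over 7, 8, 4 and 4 muscles. On the right Spp1 drops from 4.02 at 7 DPI to 0.02 at 14 DPI and Cd9 rises from 0.28 to 2.43.

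Uninjured muscle of operated rats differed from control at 3 DPI. In contralateral muscle of non-repaired rats not running, 4 of the 7 genes were called higher, Gpnmb, Lgals3, Cd9 and Cd63, where 6.43% of all tested genes were called. Gpnmb was 42.8 TPM in rat 10 and 5.99 TPM in rat 17, against 1.63, 2.08, 2.65 and 4.26 TPM in control, higher by 2.31 ± 0.53 on the log2 scale (adjusted p = 0.00037, limma). Cd63 was 552 and 439 TPM against 227, 241, 252 and 263 TPM, higher by 1.00 ± 0.18 (9.3e-06), just past the fold limit. With a replicate block for the rat its difference was 0.9996 and the call was lost. Lgals3 was 31.5 and 17.4 TPM against 6.97 to 9.96 TPM, higher by 1.37 ± 0.42 (0.0054). Cd9 was 63.1 and 30.9 TPM against 8.78 to 26.3 TPM, higher by 1.21 ± 0.31 (0.0013). Rat 10 was the higher of the pair in these 4 genes. Both contralateral muscles were above all 4 control muscles in all 7 genes, and so they were in 60.2% of all genes.

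Spp1, Trem2 and Fabp5, at 1.28 and 1.89, 0.61 and 0.51, and 12.2 and 11.7 TPM, differed by 0.74 ± 0.79, 0.36 ± 0.46 and 0.37 ± 0.33 and were not called. With a pseudocount of 0.1 TPM Trem2 was at 1.24 and called (adjusted p = 0.049). The sign for Fabp5 turned to -0.16 with size factors, which took the median of all genes from 0.43 to 0.02. With those factors Gpnmb was the 1 gene called, at 1.91, and Cd63 was at 0.43. With all libraries kept Gpnmb alone was called, and with the groups compared alone Cd63 alone. Without rat 10 none of the 4 was called, and without the right muscle of control rat 38, the library with 7866 symbols, Gpnmb and Lgals3 remained. Without the left muscle of that rat Cd63 was at 0.99 and not called.

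The other contralateral arms were not tested against control, and their values at 3 DPI lay above it in the same genes. Over all 8 contralateral muscles of 3 DPI, Gpnmb was 5.99 to 121 TPM (median 34.2), Cd63 was 417 to 745 TPM (median 506) and Lgals3 was 14.4 to 31.5 TPM (median 26.04). All 8 exceeded the highest control muscle in these 3 genes and in Cd9, at 30.9 to 63.1 TPM, which held for 39.9% of all tested genes. By 14 DPI the 8 contralateral muscles had 3.63 to 6.75 TPM of Gpnmb and 181 to 222 TPM of Cd63. Limma called none of the 7 at 7, 14 or 28 DPI, where 0.803%, 0.715% and 0.185% of all genes were called, and 2, 1 and 0 of the 7 had an unadjusted p under 0.05, as had 19.8%, 14.7% and 11.6% of all genes.

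At 3 DPI other genes were higher in those 2 contralateral muscles as well. Of 14 macrophage markers 12 were called higher, and the sum of the 14 was 119 and 250 TPM against 31.6 to 60.0 TPM in control. S100a8 and S100a9 were called higher, from a neutrophil list whose other tested genes were Csf3r, Cxcr2, Mmp8 and Lcn2. Called higher too were 5 of 6 fibroblast markers, with Col1a1 by 3.15 ± 0.54. Macrophage sums were 119 to 250 TPM over the 8 contralateral muscles of 3 DPI. Their part in the 4 calls was not tested, and operation and rat series cannot be told apart.

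**Figure D4:**
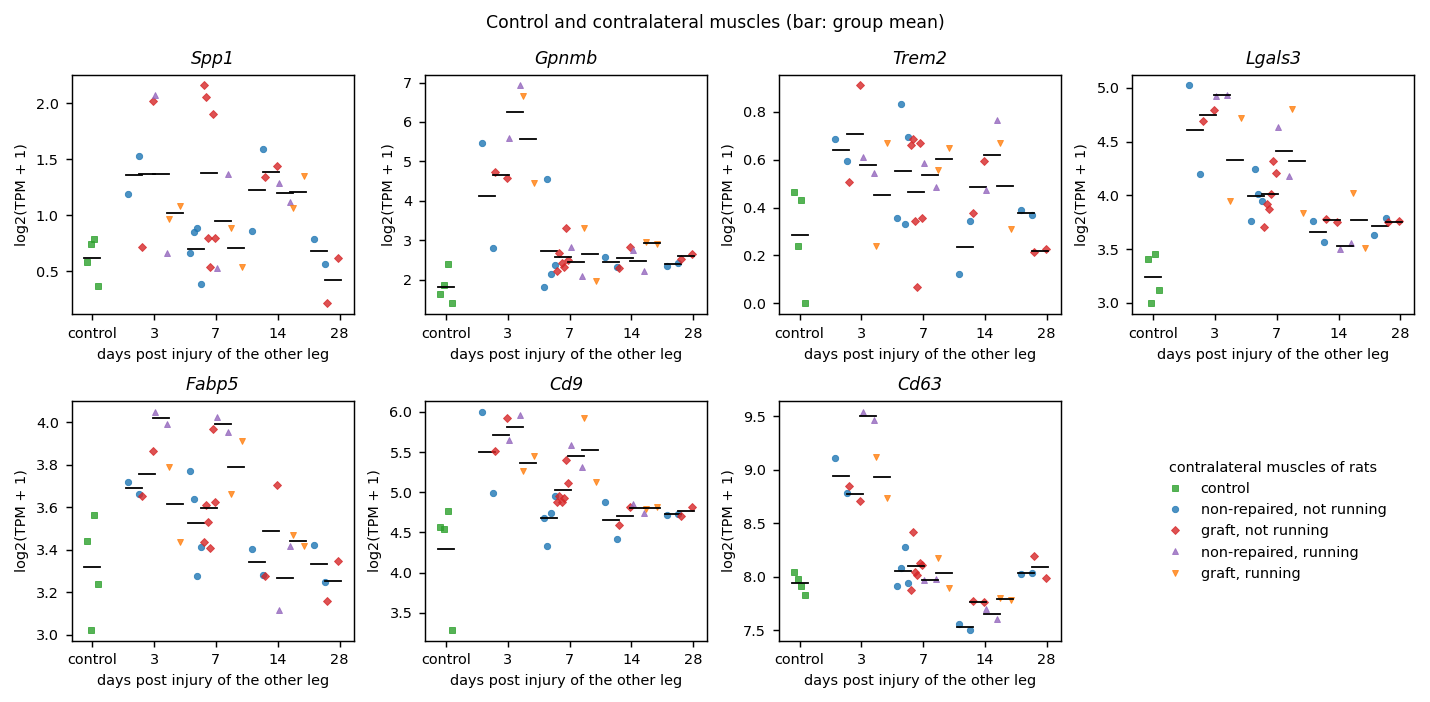
Level of each gene, as log2(TPM + 1), in control and contralateral muscles by day, including grafted and running rats. At 3 DPI Gpnmb is 5.99 to 121 TPM and Cd63 417 to 745 TPM, above all 4 control muscles, and Spp1 and Trem2 stay low.

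Across the whole series the 7 genes differed in how far injured and uninjured muscles separated. There were 76 injured and 38 uninjured muscles, control and contralateral together. Trem2, Lgals3, Fabp5 and Cd9 were higher in all 76 than in any uninjured muscle, which held for 9.06% of all tested genes. Spp1 was so in all but 1, a running non-repaired muscle of 28 DPI at 2.47 TPM, against an uninjured maximum of 3.47 TPM. For Gpnmb the uninjured maximum of 121 TPM, reached at 3 DPI, was exceeded by 24 of 24, 24 of 24, 14 of 16 and 4 of 12 injured muscles at 3, 7, 14 and 28 DPI. For Cd63 the maximum of 745 TPM was exceeded by 24 of 24, 24 of 24, 1 of 16 and 0 of 12.

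In running rats the injury was compared with contralateral muscle of non-repaired rats, and all 7 genes were called higher at 3, 7 and 14 DPI, where 40.1%, 43.1% and 26.3% of all genes were called. Spp1 was 1130 to 9618 TPM (median 2853, n = 8) at 3 DPI in injured and 0.58 and 3.22 TPM in contralateral muscle. It was 128.3, 148, 819 and 1015 TPM against 0.44 and 1.58 TPM at 7 DPI, and 27.3, 46.6, 138.4 and 152 TPM against 1.17 and 1.44 TPM at 14 DPI. No groups overlapped, which held for all 7 genes and for 56.4%, 71.1% and 73.4% of all genes, and Spp1 was higher by 10.09 ± 0.72, 7.53 ± 0.79 and 4.99 ± 0.79 on the log2 scale. Gpnmb was higher by 4.44 ± 0.48, 6.63 ± 0.53 and 5.34 ± 0.53, its contralateral values at 3 DPI being 47.3 and 121 TPM. The other 5 genes were higher by 1.27 to 6.17 at 3 DPI, 2.25 to 5.20 at 7 DPI and 1.71 to 3.62 at 14 DPI. The calls of Cd63 at 3 and 14 DPI were lost with size factors, at 0.65 and 0.99, and with all libraries kept (adjusted p = 0.14 and 0.063).

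Running against not running in non-repaired injured muscle gave no call among the 7 genes on any day by limma, with 0, 2, 5 and 1 of them at an unadjusted p under 0.05 at 3, 7, 14 and 28 DPI, against 14.5%, 21.3%, 9.96% and 3.79% of all genes. Over all genes 0.0441%, 0%, 0.0177% and 0.0177% were called. At 7 DPI all 4 running rats had numbers in the range 1 to 32, and against non-repaired rats of that range alone, an alternative added after the values by rat were seen, the differences of Spp1, Trem2 and Lgals3 went from 0.65, 0.46 and 0.64 to -0.65, -0.21 and -0.01. The widest separation was at 14 DPI, where Spp1 was 27.3, 46.6, 138.4 and 152 TPM in running rats and 5.95, 7.58, 16.7 and 20.3 TPM in the others. Those groups did not overlap, as in 4.86% of all genes, and the difference was 2.58 ± 0.64 on the log2 scale with an adjusted p of 0.14. Fabp5 was 53.4, 61.3, 76.6 and 108.04 TPM against 22.2, 34.3, 37.7 and 41.7 TPM, again without overlap, a difference of 1.10 ± 0.27 (0.14). Without replicate 3 of the running group both were called, at 3.04 (0.020) and 1.24 (0.025). Macrophage sums at that day were 557 to 915 TPM in running and 462 to 576 TPM in the other rats. At 28 DPI Spp1 lay the other way, at 2.47 and 3.80 TPM in running rats against 8.02 to 18.75 TPM, a difference of -1.85 ± 0.79 (adjusted p = 1).

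The graft in running rats gave no call among the 7 either, with 0%, 0%, 0.0177% and 0.0177% of all genes called in limma at 3, 7, 14 and 28 DPI. At an unadjusted p under 0.05 were 0, 2, 2 and 4 of the 7 and 2.02%, 6.91%, 1.97% and 2.04% of all genes. At 3 DPI all 7 differed by -0.06 to 0.75 on the log2 scale. At 7 DPI Spp1 was 848, 947, 987 and 1955 TPM with the graft and 128.3, 148, 819 and 1015 TPM without, a difference of 1.65 ± 0.64 (adjusted p = 0.62). Here too the non-repaired muscles split, rats 3 and 4 being low and rats 31 and 32 high. At 14 DPI Spp1 was 8.18, 15.6, 26.4 and 35.1 TPM with the graft and 27.3, 46.6, 138.4 and 152 TPM without, a difference of -1.89 ± 0.64 (1). The graft difference of Spp1 in running rats minus that in rats not running was -0.02 ± 0.80, -0.57 ± 0.79, -2.82 ± 0.91 and 2.77 ± 1.12 at 3, 7, 14 and 28 DPI. The sign turned between 14 and 28 DPI, and none was called by limma (adjusted p = 1, 0.89, 0.85 and 1).

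At 28 DPI 1 of the 2 grafted running rats, rat 87, had the higher value in all 7 genes, by little in Cd63, at 468 against 413 TPM. Rat 87 had 106.2 TPM of Spp1, 361 TPM of Gpnmb, 30.8 TPM of Trem2 and 349 TPM of Lgals3. Rat 88 had 4.81, 84.8, 6.85 and 75.4 TPM of the same genes, near the non-repaired rats 85 and 86. Macrophage sums were 540 TPM in rat 87 and 314 TPM in rat 88. The differences of 2.61 ± 0.91 for Spp1 and 1.37 ± 0.53 for Trem2 were not called (adjusted p = 1 for both). Without rat 88, 4 genes were called, Spp1, Trem2, Lgals3 and Fabp5, which then rests on 1 grafted muscle assumed to vary like the other groups.

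**Figure D5:**
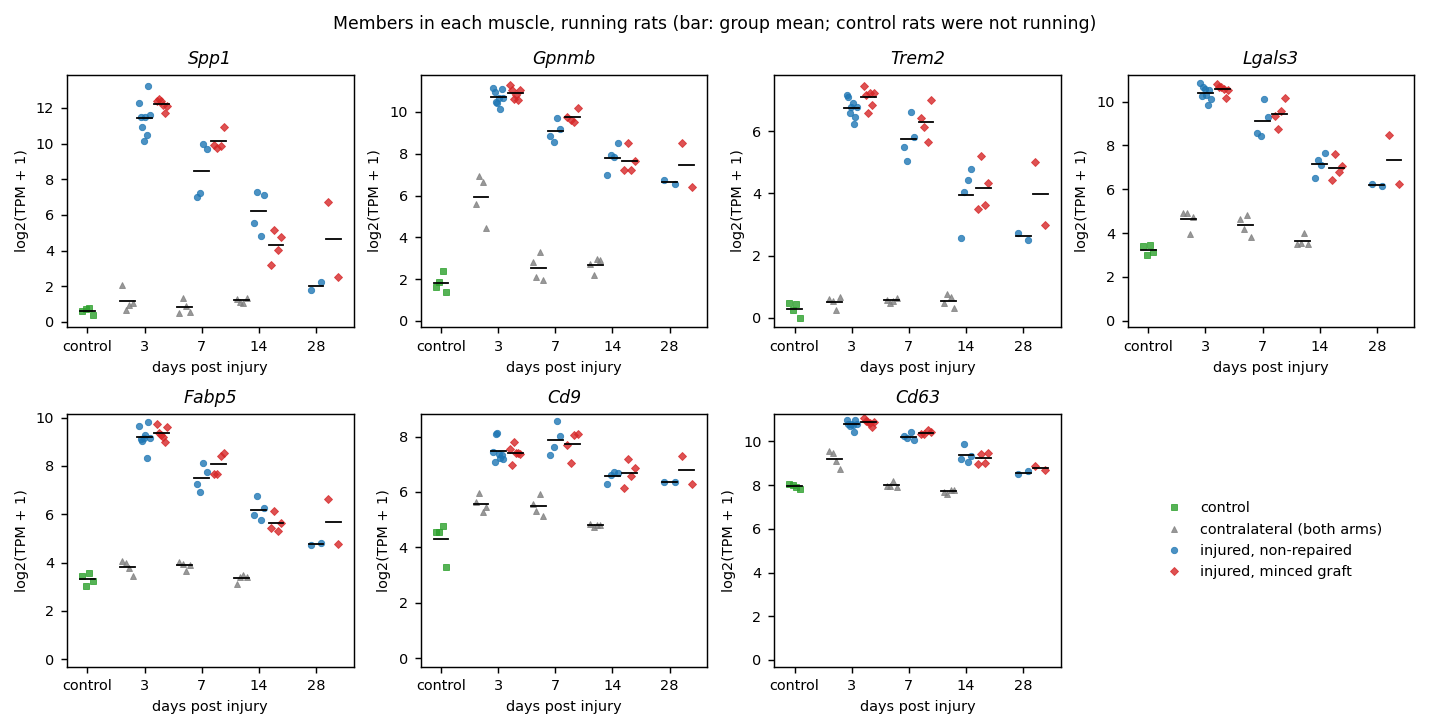
Level of each gene, as log2(TPM + 1), in control muscles and in every muscle of running rats by days post injury. Points are muscles and bars group means. At 14 DPI Spp1 is 27.3 to 152 TPM without repair and 8.18 to 35.1 TPM with the graft, and at 28 DPI the 2 grafted muscles lie at 106.2 and 4.81 TPM.

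Partners of osteopontin were read in the same comparison of grafted injured with contralateral muscle. These lists were chosen from known functions, with earlier results of these data known, and their counts stand beside the shares of all genes given above. Of 8 tested osteopontin receptors 6, 6, 5 and 4 were called higher at 3, 7, 14 and 28 DPI, with medians of 1.52, 2.08, 1.30 and 1.07 on the log2 scale. Cd44, the hyaluronan and osteopontin receptor, was higher by 4.36 ± 0.27, 3.65 ± 0.18, 2.36 ± 0.29 and 1.99 ± 0.29. The integrin gene Itga5 was higher by 2.73 ± 0.24, 2.98 ± 0.16, 1.95 ± 0.26 and 1.47 ± 0.26. Of 6 proteases able to cleave osteopontin 5, 5, 3 and 3 were higher, among them Mmp12, macrophage elastase, by 4.79 ± 0.82, 5.69 ± 0.55, 3.19 ± 0.89 and 3.18 ± 0.89, and the gelatinase gene Mmp9 by 2.79 ± 0.67, 3.74 ± 0.45, 2.40 ± 0.73 and 2.59 ± 0.73.

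Around Trem2, 7, 7, 5 and 3 of 7 tested ligand and signalling genes were higher, and of 14 lipid handling genes 10, 9, 7 and 6. Apoe, a lipid carrier that TREM2 binds, was higher by 5.43 ± 0.34, 5.48 ± 0.23, 4.58 ± 0.37 and 3.75 ± 0.37. Syk, the kinase downstream of TREM2, was higher by 3.60 ± 0.23, 2.80 ± 0.16, 1.46 ± 0.25 and 1.11 ± 0.25. Plin2, a coat protein of lipid droplets, was higher by 4.14 ± 0.24, 3.41 ± 0.16, 2.32 ± 0.26 and 2.18 ± 0.26, and the scavenger receptor gene Msr1 by 5.21 ± 0.32, 4.13 ± 0.22, 1.97 ± 0.35 and 1.56 ± 0.35. Lpl and Cd36, which muscle itself expresses, differed by -0.04 and -0.79 at 3 DPI and were not called.

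The wider lipid-associated and scar-associated programme was higher as well, in 17, 18, 15 and 15 of 19 tested genes. The lysosomal protease gene Ctsb was higher by 4.40 ± 0.25, 3.75 ± 0.17, 2.03 ± 0.27 and 1.53 ± 0.27. Ctsk, which osteoclasts and fibroblasts also express, was higher by 2.88 ± 0.47, 4.98 ± 0.31, 4.17 ± 0.50 and 3.83 ± 0.50, and stayed high when Spp1 was low. Syngr1 was the 1 gene of that list called lower, by -1.23 at 3 DPI. Of 4 MiT/TFE factors only Tfec was called, at 3 and 7 DPI, and its differences at 14 and 28 DPI were 0.89 and 0.61.

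Relatives of the 7 genes were not uniformly higher. Of 10 tetraspanins, counting Cd9 and Cd63, 8, 9, 8 and 7 were higher. They were led at 3 DPI by the leukocyte gene Cd53 at 4.83 ± 0.32 and by Cd82 at 4.26 ± 0.23, and Tspan8 was lower by -1.57. Of 6 tested genes of the galectin list, which counts Lgals3 and the galectin-3 binding protein gene Lgals3bp, 4, 5, 4 and 3 were higher, Lgals1 by 2.61 ± 0.20, 2.51 ± 0.13, 1.89 ± 0.21 and 1.45 ± 0.21. Of 9 measured fatty acid binding protein genes, 4 passed the filter, and of these Fabp5 was higher on all days. Fabp4, known from fat cells and macrophages, was called at 3 DPI alone, at 1.38 ± 0.24. Fabp3, the muscle form, was lower by -1.52 ± 0.33 at 3 DPI and differed by -0.58, -0.11 and 0.07 later.

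The genes whose pattern over the 31 group means was most like each of the 7 were found by Pearson r, which is given as a description. The points share libraries, control and contralateral groups, and the large step between injured and uninjured muscle. Spp1 was nearest to Cd300lf (r = 0.995), Cd300a (0.993) and Stap1 (0.993), and Trem2 to Layn (0.996), Slamf9 (0.995) and Mpeg1 (0.995). Lgals3 was nearest to Capg (0.998), Pqlc3 (0.997) and Cd68 (0.996), and Fabp5 to Ptpre (0.996), Fermt3 (0.996) and Fgd3 (0.995). Gpnmb was nearest to Ctps2 (0.988), Pqbp1 (0.987) and Tmbim1 (0.987), Cd9 to C2 (0.992), Snx33 (0.989) and Dnm1 (0.989), and Cd63 to Tex264, Ift52 and Fibp (0.993 each). Such values were common, since each of the 7 had r above 0.9 with 4235 to 5034 of 11327 genes. Among the 7 genes r ran from 0.888 for Spp1 with Cd9 to 0.993 for Spp1 with Fabp5.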

How the data were processed

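RNA-Seq libraries of whole rat TA muscle were quantified by the authors with Kallisto against rat build 6.0, and 1 table of TPM per gene symbol and library was deposited. The deposited TPM were used unchanged, and the table used here ends alphabetically at Tubb3. Without counts, how deeply a library was sequenced cannot be read from it. The 7 genes, the gene lists and the comparisons were chosen with earlier results of these data known.

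Libraries were joined to labels by name, 9 with conflicting labels were left unassigned, and 13 with fewer than 7000 symbols above 1 TPM were dropped. Libraries of a muscle were averaged, which left 116 libraries of 114 muscles in 31 groups. limma 3.58.1 in R 4.3.3 was fitted once to log2(TPM + 1), pseudocount 1 TPM, with an intensity trend (83 residual degrees of freedom), over 11328 genes with a mean above 1 TPM in at least 1 group. A gene was called at a Benjamini-Hochberg adjusted p under 0.05 over those genes and a log2 fold change beyond 1. Comparisons at a day share control or contralateral groups. Genes named were the 7, list members, and the 3 genes most like each. For the relative scale, the mean of the 14 macrophage markers was subtracted in each muscle. The fit was tested on simulated data. Values of 1 list member are not reported here. Motif matches in RefSeq promoters (GRCr8) were found with Python 3.11.15.

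Injured and contralateral muscles of a rat share an animal. The deviations from the group means of the 36 same-rat pairs correlated at a mean of 0.072 (-0.64 to 0.36, 15 pairs over 0.1), and a random block for the rat was an alternative. Alternatives were a pseudocount of 0.1 TPM, no filter, size factors, all libraries kept, the rat block, a covariate for the range of rat numbers, each library its own sample, the p limit alone, the groups compared alone, Cd68 alone as reference and, in groups of 2 to 5 muscles, each replicate left out.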

Additional observations from a re-analysis of the deposited data

Results flagged for a closer look

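Of 112 sets of a gene and a group of 4 to 10 muscles, 6 held a muscle set apart from the others by more than Dixon's 95% limit, and chance flags about 1 in 20 such sets. Rat 82 (non-repaired, 28 DPI) was high in Lgals3, at 229.47 TPM, and in Fabp5, at 66.31 TPM. Rat 23 (grafted, 7 DPI) was high in Fabp5, at 417.32 TPM. Rat 76 (grafted, 28 DPI) was high in Cd63, at 660.36 TPM. The right muscle of control rat 38 was low in Cd9, at 8.78 TPM, and its library had the fewest symbols of those kept. Rat 98 (running, non-repaired, 3 DPI) was low in Cd63, at 1361.05 TPM.

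The 9 libraries with conflicting labels, used in no comparison, also held the 7 genes above the highest control muscle. The highest value was 9.29 TPM for Spp1 (6 libraries above control), 147.83 TPM for Gpnmb (8), 10.18 TPM for Trem2 (7), 126.22 TPM for Lgals3 (9), 37.54 TPM for Fabp5 (6), 100.25 TPM for Cd9 (8) and 414.41 TPM for Cd63 (7).

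Among the 13 libraries dropped for few symbols, 5 genes were above the highest control muscle. The highest values were 186.45 TPM for Spp1 (11 libraries above control), 113.33 TPM for Gpnmb (11), 4.08 TPM for Trem2 (7), 76.61 TPM for Lgals3 (8) and 25.11 TPM for Fabp5 (3). Of the 13, 8 were titled Inj and 5 Con, and the libraries above control include some titled Con. In rat 4 the dropped library titled Con had 114.52 TPM of Spp1 and 60.93 TPM of Gpnmb. Its dropped library titled Inj had 6.55 and 10.44 TPM.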

How the results depend on the processing

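Of the counts and medians recomputed under alternatives other than leaving out a replicate, 310 stayed within their limits and 19 moved. The number of the 7 genes called for the graft at 7 DPI, 2 as reported, was 1 with size factors and 4 with all libraries kept. It was 0 with the groups compared alone. With both groups cut to the lowest, middle and highest range of rat numbers, all 3 chosen after the values were seen, it was 0, 0 and 3. Contralateral against control at 3 DPI, 4 as reported, gave 1 with size factors, 1 with all libraries kept, 1 with the groups alone and 0 to 4 with a replicate left out (0 without rat 10, 2 without the right muscle of control rat 38). At 7 DPI, 0 as reported, it gave 2 with all libraries kept, where Cd9 and Cd63 turned to -1.17 and -1.77, and 1 with the range covariate. With a replicate left out, the graft in running rats at 28 DPI gave 0 to 4 (4 without rat 88), and running against not running at 14 DPI gave 0 to 2 (2 without running replicate 3). The median difference from control was 5.78 at 3 DPI with size factors, 3.48 and 2.71 at 14 DPI with a pseudocount of 0.1 TPM and size factors (2.73 to 2.93 with a replicate left out), and 3.32 at 28 DPI with that pseudocount (2.05 to 2.82, lowest without rat 82). Relative to macrophage markers, 7 against 3 DPI gave 2 at the p limit alone. On that scale 14 against 7 DPI gave 2 with the range covariate, 6 at the p limit alone, 2 with Cd68 alone and 1 to 2 with a replicate left out (2 without grafted replicate 4 of 14 DPI), and 28 against 3 DPI gave 7 at the p limit alone and 3 to 5 with a replicate left out (5 without rat 84). Muscles of groups of 6 to 8, among them both groups of the graft comparison at 7 DPI, were not left out. The causes were not tested. The replicate block for the rat changed 1 of 217 calls, that of Cd63 in contralateral muscle at 3 DPI, to 0.9996. With the groups compared alone, Spp1 and Trem2 did not pass the low-value filter in some contralateral comparisons with control and have no value there. The table of TPM gives no depth, so how far depth limits low values such as Trem2 in uninjured muscle is unknown.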

Other observations

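Of the 9 unassigned libraries, all but 1 are of running rats at 28 DPI, with titles and labels that name opposite muscles, and their values are given by title without a comparison. Spp1 was 3.13, 8.46, 5.49 and 9.29 TPM in the libraries titled Con of rats 77, 78, 79 and 80, and 0.88, 0.39, 0.15 and 0.58 TPM in those titled Inj. Gpnmb was 56.3, 83.7, 148 and 140 TPM in those titled Con and 8.13, 3.94, 6.56 and 5.97 TPM in those titled Inj. The remaining library, titled Con of rat 11, had 1.61 TPM of Spp1 and 6.68 TPM of Gpnmb.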
